A study of Mus musculus with 36 samples.

Results

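The 66 genes described here carry the systematic names of the clustered, replication-dependent histone genes and were chosen by name alone from the 55487 genes of the deposited count table. They are 6 genes of linker histone H1, 19 of H2A, 17 of H2B, 12 of H3 and 12 of H4. On chromosome 13 lie 55 of them, 54 in the cluster that runs from H2bc13 to H2ac1, while 10 lie on chromosome 3 and 1 on chromosome 6. The gene on chromosome 6, H1f10, encodes the replication-independent linker histone H1X and was caught by the naming rule, so sums are given with and without it. RNA came from E14.5 cortices of female mouse embryos, with 2 embryos in each pool. In the LoF cross, cHet pools were Emx1-Cre/+;Ddx3x lox/+ and control pools were Ddx3x lox/+ without Cre. In the T532M cross, cHet pools were Emx1-Cre/+;Ddx3x-T532M lox/+ and control pools were Emx1-Cre/+ without a floxed allele. Emx1-Cre recombines in dorsal forebrain progenitors and their descendants, so other cells of the dissected cortex keep the unrecombined allele. Ddx3x, the X-linked gene both alleles alter, encodes an RNA helicase that acts in translation. Each cross and genotype has 3 pools, and each pool gave a polysome, a monosome and an input library, 36 libraries in all.

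Replication-dependent histones package newly made DNA, and their mRNAs accumulate while a cell is in S phase. Most of these genes have no intron, and their mRNAs end not in a poly(A) tail but in a conserved stem-loop, which the stem-loop binding protein SLBP holds during cleavage, translation and decay. In the cortex at this stage the cycling cells are chiefly the progenitors of the ventricular and subventricular zones, next to neurons that have left the cycle. Some histone genes also make longer mRNAs that run past the stem-loop to a poly(A) signal, above all in cells that have stopped dividing.

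All 66 genes matched transcripts of GENCODE M21 on GRCm38 by gene ID, and 42 of them have a histone stem-loop on the sense strand of a transcript. The same search matched 600 of 21901 protein-coding genes, or 2.74%. The 5 loops shown are those of genes with the highest levels among genes with a loop, to set their classes side by side, as 30 bases of the transcript, with the paired stem bases in capitals.
H1f2, chr13:23739505-23739534, plus strand: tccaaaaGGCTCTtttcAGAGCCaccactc
H2ac11, chr13:22042476-22042505, minus strand: caacaaaGGCTCTtttcAGAGCCacctaac
H3c3, chr13:23745040-23745069, minus strand: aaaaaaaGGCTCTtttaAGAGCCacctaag
H4c9, chr13:22040959-22040988, minus strand: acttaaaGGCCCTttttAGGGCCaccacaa
H4c2, chr13:23757359-23757388, plus strand: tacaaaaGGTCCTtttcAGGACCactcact
The form of H1f2 and H2ac11 is shared by 24 of the 42 genes, across H1, H2A, H2B and H3. The form of H4c9 occurs in only 1 other gene, H4c14, and that of H4c2 in H4c11. In 23 genes the annotated transcript ends within 100 bases after the loop, and in 19 it runs on for more than 100 bases. The transcript of H4c9 continues for 330 bases past its loop and that of H1f2 for 840 bases.

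A poly(A) signal, AATAAA on the sense strand, lies in the last 50 bases of the longest transcript of 9 of the 66 genes, against 59.2% of protein-coding genes. Of them, H1f10, H2bc21 and H1f2 are among the genes with most reads, and their signals are shown in capitals within 30 bases of the transcript.
H1f10, chr6:87980424-87980453, minus strand: ttcctggggcgcAATAAAcggttccaacct
H2bc21, chr3:96223705-96223734, plus strand: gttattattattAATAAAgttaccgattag
H1f2, chr13:23740330-23740359, plus strand: gtgtatgcttctAATAAAaagcgtttagtt
H1f10 and H2bc21 matched no stem-loop, while H1f2 has both elements. A match or its lack describes these annotated transcripts and says nothing of the 3′ ends that were sequenced.

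The libraries held 44214830 to 57935512 assigned read pairs in polysomes, 36999365 to 49049947 in monosomes and 38059093 to 46271375 in input. The 66 genes took 1340 to 2653 of them in a polysome library, 4120 to 7882 in a monosome library and 13663 to 17220 in an input library. No library repeated another. Ddx3x averaged 1896 ± 282 CPM (counts scaled to library size) in LoF cHet polysomes and 2370 ± 272 CPM in LoF control polysomes, and 5190 ± 942 CPM in T532M cHet polysomes and 3011 ± 619 CPM in T532M control polysomes (SD, n = 3 each). In monosomes it averaged 206.1 ± 38.9 CPM in LoF cHet and 296.7 ± 35.3 CPM in LoF control pools, and 310 ± 40.6 CPM in T532M cHet and 318 ± 31.7 CPM in T532M control pools. In input it averaged 89.1 ± 26.9 CPM in LoF cHet and 112.4 ± 35.5 CPM in LoF control pools, and 202.9 ± 37 CPM in T532M cHet and 102.5 ± 50.0 CPM in T532M control pools. Counts cover the whole gene, and the sources used here do not give the exons that the alleles change, so these values are no full check of the labels. Dorsal cortex markers such as Emx1 and Pax6 summed to 1619 to 2296 CPM in the 12 input libraries. Markers of choroid plexus and cortical hem ranged from 9.49 to 55.1 CPM in LoF cHet input, against 25.8 to 203.9 CPM in LoF control input. In the T532M cross the same sum ranged from 9.99 to 233.6 CPM in cHet input, against 14.2 to 16.9 CPM in control input. In bulk tissue, fewer cells of a type and less RNA per cell cannot be told apart.

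Reads on these genes came almost wholly from 5 of them. H1f10, H2bc21, H4c9, H1f2 and H2bc4 held 90.9% of the summed input level, and each averaged 10 CPM or more. The highest of the other 61 genes, the H2A gene H2ac6, averaged 1.55 CPM in input. In all, 12 genes averaged 1 CPM or more and 54 stayed under it. No read pair in any library fell on 4 genes, H2ac18, H3c14, H2bc18 and H2bc1, and Hist1h2bq and H2ac1 had 10 or fewer over all 36.

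Per kilobase of gene span, H1f10 led with 142.3 ± 9.46 CPM (SD over the 12 input libraries). H4c9, which encodes histone H4 like the other 11 genes of its class, followed with 31.1 ± 2.92 CPM per kb. H2bc21, an H2B gene of the chromosome 3 cluster, had 17.1 ± 0.656 CPM per kb. The linker histone gene H1f2 had 7.24 ± 1.17 CPM per kb. These 4 genes stood apart from one another by more than their spread.

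Below them the order within a class was close. The leading H2A genes were H2ac11 with 2.62 ± 0.521, H2ac13 with 1.83 ± 0.485 and H2ac8 with 1.59 ± 0.344 CPM per kb. Neighbours in that order overlapped within their SD. The leading H3 genes, which encode the canonical H3 proteins, were H3c3 with 1.81 ± 0.656, H3c10 with 1.05 ± 0.463 and H3c15 with 0.647 ± 0.170 CPM per kb, and neighbours in that order overlapped. After H4c9 the H4 genes were H4c2 with 2.67 ± 0.425 and H4c12 with 1.26 ± 0.462 CPM per kb. In H2B, H2bc12 had 1.45 ± 0.389 and H2bc4 had 1.24 ± 0.183 CPM per kb of span. H2bc4 has an intron: on the length of its transcript it had 9.33 CPM per kb. After H1f2 the next H1 gene was H1f5, with 0.772 ± 0.271 CPM per kb.

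**Figure D1:**
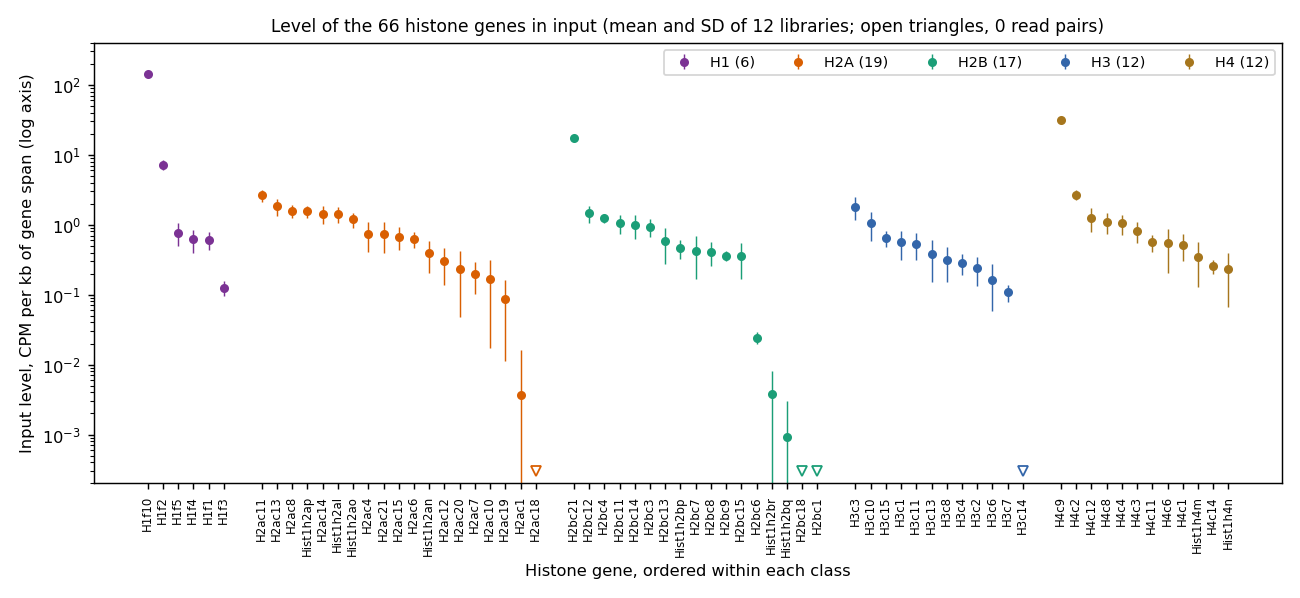
Input level of each of the 66 histone genes, in CPM per kb of gene span on a log axis, as the mean (points) and SD (bars) of 12 libraries, ordered within each class. H1f10, H4c9, H2bc21 and H1f2 stand above the rest, and open triangles mark 4 genes with no read pair.

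The annotated 3′ ends are set beside the levels here without a test. The 23 genes whose transcripts end within 100 bases of the loop had a median of 0.564 CPM per kb in input and a highest value of 2.67. The 19 genes whose transcripts run on had a median of 0.518 and a highest value of 31.1, that of H4c9. The 24 genes without a loop match had a median of 0.598 and a highest value of 142.3, that of H1f10. Of the genes at 1 CPM or more in input, 3, 6 and 3 fell in these sets.

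Many of these genes have near-identical copies. Over the 66 genes a median of 57.5% of the 50-base windows of the longest transcript also occur in another gene, and 36 genes share more than 50%. Reads of such windows have no unique place, and the count table leaves out reads that map to several places. The share was 0 in H2bc21, H1f5 and H1f1, 8.5% in H1f2, 28.9% in H4c9 and 30.6% in H2bc4, whereas it was 78.9% for the median H2A gene. Levels of single genes with high shares are uncertain, and how far copies bear on the low values was not tested. Of the 3 genes that share no window, H2bc21 had 17.1 CPM per kb and H1f5 had 0.772. Whether poly(A) selection or ribosomal RNA depletion was used is not stated in the sources used here. A list of 10 small non-coding RNAs without a poly(A) tail summed to 0.118 to 0.551 CPM in polysomes, 0.346 to 1.20 CPM in monosomes and 1.32 to 4.69 CPM in input. Whether RNA selection, size selection or the loss of reads that map to several places bears on these or on the histone values was not tested.

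Histone reads were scarcest in polysomes. Without H1f10 the 65 genes summed to 22.1 ± 2.73 CPM in polysomes, 65.1 ± 8.80 CPM in monosomes and 115.8 ± 4.34 CPM in input (SD over the 12 pools, both crosses and genotypes). The ranges were 18.3 to 27.4, 50.0 to 74.4 and 110.1 to 122.4 CPM, so the fractions did not overlap. Within a pool the polysome sum was 15.0 to 23.2% of the input sum, and the monosome sum was 40.8 to 65.3% of it. With H1f10 the sums were 57.3 ± 7.30 CPM in polysomes, 110.5 ± 13.9 CPM in monosomes and 289.1 ± 13.5 CPM in input. CPM compares shares of each library and not amounts of RNA on the gradient. Scaling by library totals in place of TMM factors (trimmed mean of M-values) lowers every log2 ratio of polysome over monosome by 0.90 and of polysome over input by 0.90, and leaves monosome over input at 0.00.

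The class sums differed in how they were divided between monosomes and polysomes. H4 had the lowest ratios, which overlapped those of H2B and H2A: the sum of its 12 genes, most of it H4c9, had a log2 ratio of polysome over monosome of -2.73 to -1.70 over the 12 pools. For H2B the ratio was -2.21 to -1.31, for H2A -1.97 to -1.22 and for H3 -1.67 to -0.14. The sum of the 5 H1 genes other than H1f10, most of it H1f2, lay between -0.71 and 0.55 on TMM scaling. On library totals it lay between -1.51 and -0.55, below 0 in each of the 12 pools. The H1 range on TMM scaling lay above those of H4, H2B and H2A without overlap. The H1 genes also have the longest coding parts, with a median coding length of 657 bases, against 309 for H4, 378 for H2B, 390 for H2A and 408 for H3. The part of length in the difference was not tested. Relative to input, the polysome sum of every class was lower in each of the 12 pools, at 7.84 to 15.1% of input for H4 and 22.5 to 42.4% for H1.

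**Figure D2:**
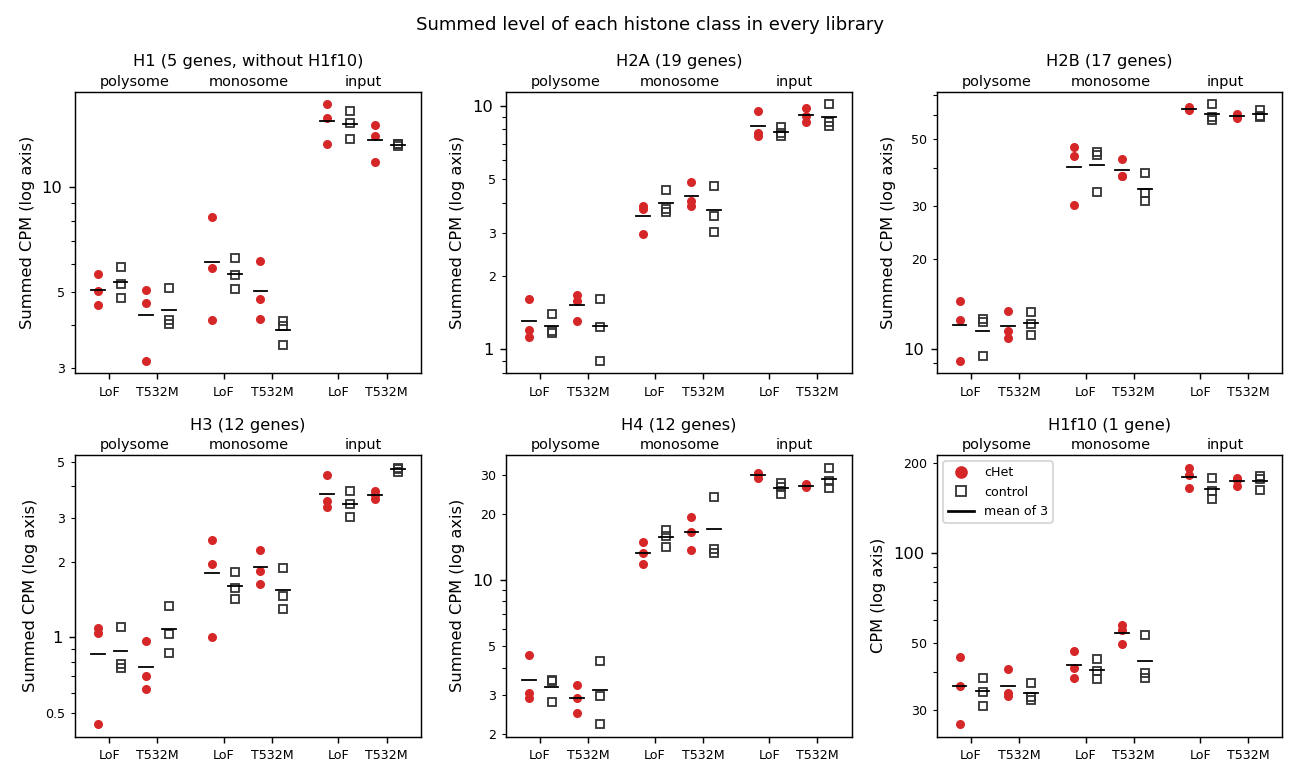
Summed CPM of each histone class in every library, on log axes, with polysome, monosome and input from left to right, cHet as filled circles, control as open squares and the mean of 3 as a line. H4 drops most between monosomes and polysomes, H1 stays near level there on TMM scaling, and cHet and control points mostly mix.

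Single genes were tested between fractions in control pools with edgeR's quasi-likelihood test, adjusted by Benjamini-Hochberg over all genes tested. In each cross 49 of the 66 genes passed the low-count filter, so the counts that follow describe those and not the whole set. In LoF controls 29 were lower in polysomes than in monosomes and 1 was higher, beside 81.2% of all genes called, 36.4% higher and 44.9% lower. The 2 LoF control pools and 1 LoF cHet pool with over 30 CPM of Ttr, a choroid plexus gene, in input were also left out. That leaves 1 LoF control pool, so no count is given, and the median given below was then -1.26 in LoF controls. In T532M controls 21 were lower, a share of 42.9% that is near the 43.9% of all genes, and again 1 was higher, beside 36% of all genes higher and 79.9% called. At an unadjusted p under 0.05 the counts of histone genes were 30 in LoF and 22 in T532M controls, beside 82.1% and 81.1% of all genes. Their median log2 fold change was -1.56 in LoF controls and -1.09 in T532M controls, beside -0.31 over all genes in both.

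H4c9 shows the pattern. In LoF controls it had 1.97, 2.23 and 2.46 CPM in polysomes, against 11.9, 10.4 and 13 CPM in monosomes. In T532M controls it had 1.5, 3.10 and 1.73 CPM in polysomes, against 10.6, 19.1 and 9.77 CPM in monosomes. The fractions did not overlap in either cross. The log2 fold change was -2.41 (SE 0.188, adjusted p = 4.97e-10) in LoF controls and -2.66 (SE 0.273, adjusted p = 4.92e-08) in T532M controls.

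H2bc21 and H2bc4, both H2B genes, fell as well. H2bc21 had 7.73, 9.60 and 9.45 CPM in LoF control polysomes, against 30.4, 22.1 and 29 CPM in LoF control monosomes, and 7.79, 8.74 and 9.42 CPM in T532M control polysomes, against 19.3, 25.3 and 22.6 CPM in T532M control monosomes. Its log2 fold change was -1.61 (SE 0.183, adjusted p = 1.22e-07) in LoF controls and -1.38 (SE 0.116, adjusted p = 3.11e-09) in T532M controls. Every polysome library lay below every monosome library. H2bc4 had 0.808, 0.675 and 1.68 CPM in LoF control polysomes, against 8.43, 5.56 and 9.05 CPM in LoF control monosomes. In T532M controls it had 1.77, 1.03 and 1.54 CPM in polysomes, against 6.30, 5.98 and 4.89 CPM in monosomes. The log2 fold change was -2.87 (SE 0.288, adjusted p = 2.05e-08) in LoF controls and -1.98 (SE 0.238, adjusted p = 4.24e-07) in T532M controls, again with no overlap.

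H1f2 and H1f10 differed less between these fractions. H1f2 had 3.27, 3.27 and 3.55 CPM in LoF control polysomes, against 4.88, 3.55 and 4.07 CPM in LoF control monosomes, and the fractions met at 3.55. In T532M controls it had 2.64, 2.44 and 2.72 CPM in polysomes, against 2.86, 2.74 and 2.69 CPM in monosomes, with overlap. Its log2 fold change of -0.32 (SE 0.245, adjusted p = 0.230) and -0.09 (SE 0.184, adjusted p = 0.650) did not pass in LoF or T532M controls. H1f10 had 30.9, 38.3 and 34.4 CPM in LoF control polysomes, against 44.3, 38.1 and 40.3 CPM in LoF control monosomes, which overlap. In T532M controls H1f10 had 32.3, 37 and 33.2 CPM in polysomes, against 38.3, 53.2 and 39.7 CPM in monosomes, where polysomes were lower throughout. The log2 fold change was -0.25 (SE 0.147, adjusted p = 0.117) in LoF controls and -0.36 (SE 0.122, adjusted p = 0.0109) in T532M controls, and that call was lost without T532M control pool 2.

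H1f4, also a linker histone gene, was the 1 gene higher in polysomes in both crosses. It had 0.841, 1.27 and 1.38 CPM in LoF control polysomes, against 0.423, 0.336 and 0.368 CPM in LoF control monosomes. In T532M controls it had 0.959, 1.82 and 0.878 CPM in polysomes, against 0.201, 0.128 and 0.395 CPM in monosomes. The fractions did not overlap, and the log2 fold change was 1.62 (SE 0.394, adjusted p = 0.000972) in LoF controls and 2.32 (SE 0.516, adjusted p = 0.000477) in T532M controls. These values rest on 26 to 53 read pairs in a polysome library and 8 to 24 in a monosome library. On library totals both log2 fold changes are 0.90 lower, and the call on that scaling was not tested. The span of H1f4 overlaps that of H2bc6 by 496 bases on the same strand, and reads in the overlap were assigned to neither gene.

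**Figure D3:**
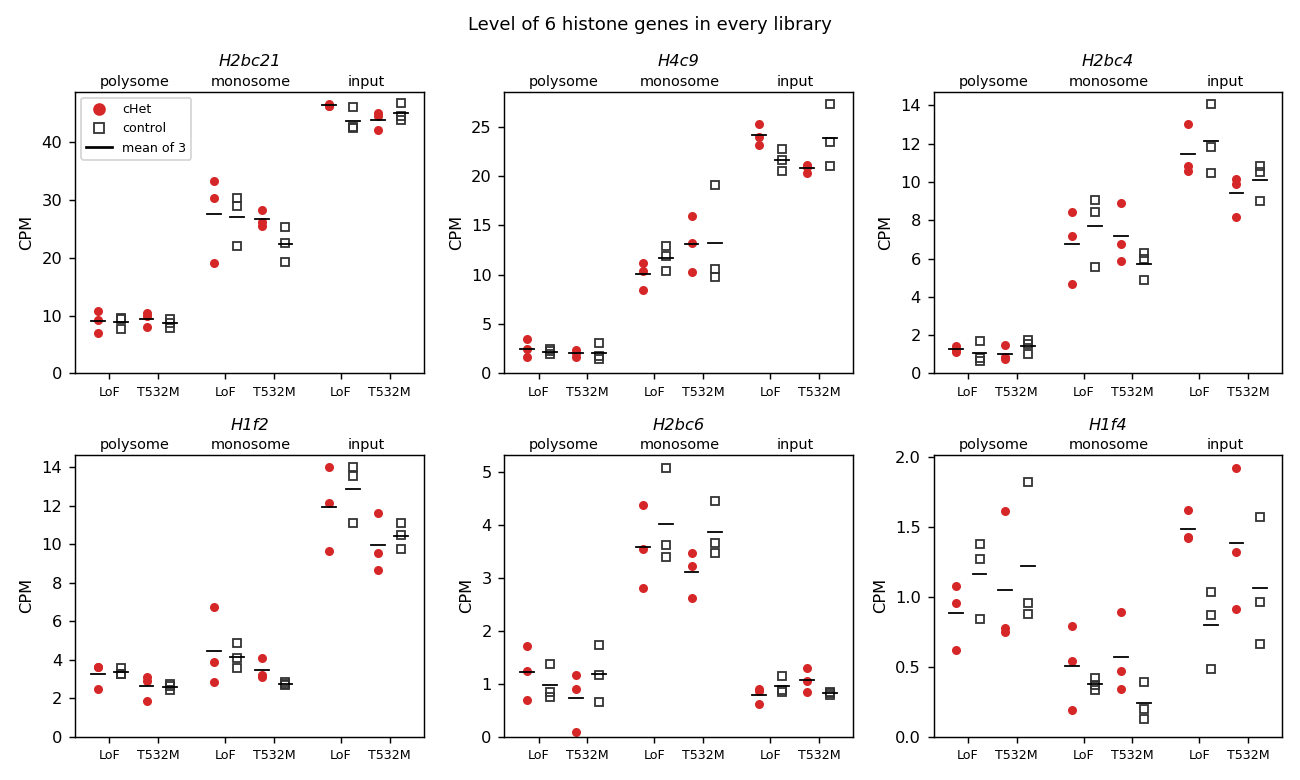
CPM of 6 histone genes in every library, with polysome, monosome and input from left to right, cHet as filled circles, control as open squares and the mean of 3 as a line. H4c9, H2bc21 and H2bc4 step down from input to monosomes to polysomes, H2bc6 is highest in monosomes, and H1f4 is lowest there.

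Against input, the shift was larger. In polysomes 38 of the 49 tested genes were lower in LoF controls and 42 in T532M controls, and 0 were higher in either cross, beside 42.8% and 42.4% of all genes lower, 36.5% and 36.6% higher and 79.3% and 79% called. Genes could enter these counts through their input reads: in LoF controls Hist1h2ao had 0.0181 CPM in polysomes and 0.595 CPM in input. The fit without the LoF pools with Ttr leaves 1 LoF control pool, so its count is not given. At an unadjusted p under 0.05, 41 and 42 of the 49 passed, beside 80.5% and 80.1% of all genes, and DESeq2 called 39 and 41. The median log2 fold change was -2.36 in LoF controls and -2.32 in T532M controls, beside -0.27 and -0.26 over all genes. H4c9 had -3.29 (SE 0.190, adjusted p = 7.14e-12) in LoF controls and -3.55 (SE 0.278, adjusted p = 9.74e-10) in T532M controls. H2bc4 had -3.52 and -2.84, H2bc21 -2.30 and -2.43, H1f10 -2.25 and -2.39, and H1f2 -1.95 and -2.05, in LoF and T532M controls in that order, all past the threshold. H1f4 had 0.54 (SE 0.368, adjusted p = 0.183) in LoF controls and 0.15 (SE 0.458, adjusted p = 0.766) in T532M controls, and neither passed.

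Between monosomes and input the falls varied from gene to gene. In LoF controls 23 of the 49 tested genes were lower in monosomes and 2 higher, beside 30.6% and 32.2% of all genes and 62.7% called. Without 1 pool at a time 15 to 29 were called in LoF controls. In T532M controls 22 were lower and 2 higher, beside 31% and 32.1% and 63.1% called. At an unadjusted p under 0.05, 31 and 32 of the 49 passed in LoF and T532M controls, beside 66.1% and 66.3% of all genes. H1f10 fell by 2.00 on the log2 scale in LoF controls (adjusted p = 9.80e-10) and by 2.03 in T532M controls (adjusted p = 1.92e-10), and H1f2 by 1.62 (adjusted p = 6.27e-06) and 1.95 (adjusted p = 2.57e-08). The falls were 0.88 and 0.89 for H4c9, 0.69 and 1.05 for H2bc21 and 0.66 and 0.86 for H2bc4. Large falls were not limited to H1: H3c3 fell by 2.33 (SE 0.360, adjusted p = 1.68e-05) in T532M controls, and had -1.09 (SE 0.478, adjusted p = 0.0541) in LoF controls, which did not pass. In both crosses H1f10 and H1f2 thus fell more between input and monosomes than between monosomes and polysomes, and H4c9, H2bc21 and H2bc4 the other way round.

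H2bc6, another H2B gene, was higher in monosomes than in either other fraction. In LoF controls it had 0.744, 1.38 and 0.840 CPM in polysomes, 3.38, 3.61 and 5.07 CPM in monosomes and 0.854, 0.889 and 1.14 CPM in input. In T532M controls it had 0.659, 1.17 and 1.73 CPM in polysomes, 3.46, 4.45 and 3.65 CPM in monosomes and 0.843, 0.785 and 0.825 CPM in input. Monosome libraries lay above all others. The log2 fold change of monosome over input was 2.06 (SE 0.293, adjusted p = 5.06e-06) in LoF controls and 2.20 (SE 0.425, adjusted p = 0.000190) in T532M controls. That of polysome over monosome was -2.02 (adjusted p = 4.88e-06) and -1.71 (adjusted p = 0.00125). The counted span of H2bc6 is 37455 bases long, at chr13:23583670-23621124 on the minus strand, far longer than its transcript of 2506 bases, so where in the span these reads lie cannot be told from the table.

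The other genes higher in monosomes than input were H2ac10 in LoF controls and H4c12 in T532M controls. H2ac10 had 9, 1 and 90 read pairs in LoF control monosomes, and its log2 fold change was 3.60 (adjusted p = 0.00644). That became 1.25 (adjusted p = 0.397) without LoF control pool 3 and 0.06 without the LoF pools with Ttr, which leaves 1 LoF control pool. The adjusted p ranged from 1.5e-06 to 0.397 over the other settings tried. H4c12 had 0.513, 0.511 and 0.789 CPM in T532M control monosomes, against 0.196, 0.196 and 0.342 CPM in T532M control input, which gave a log2 difference of 1.26 (SE 0.465, adjusted p = 0.0252). In LoF controls its log2 fold change was 0.32 (adjusted p = 0.495).

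**Figure D4:**
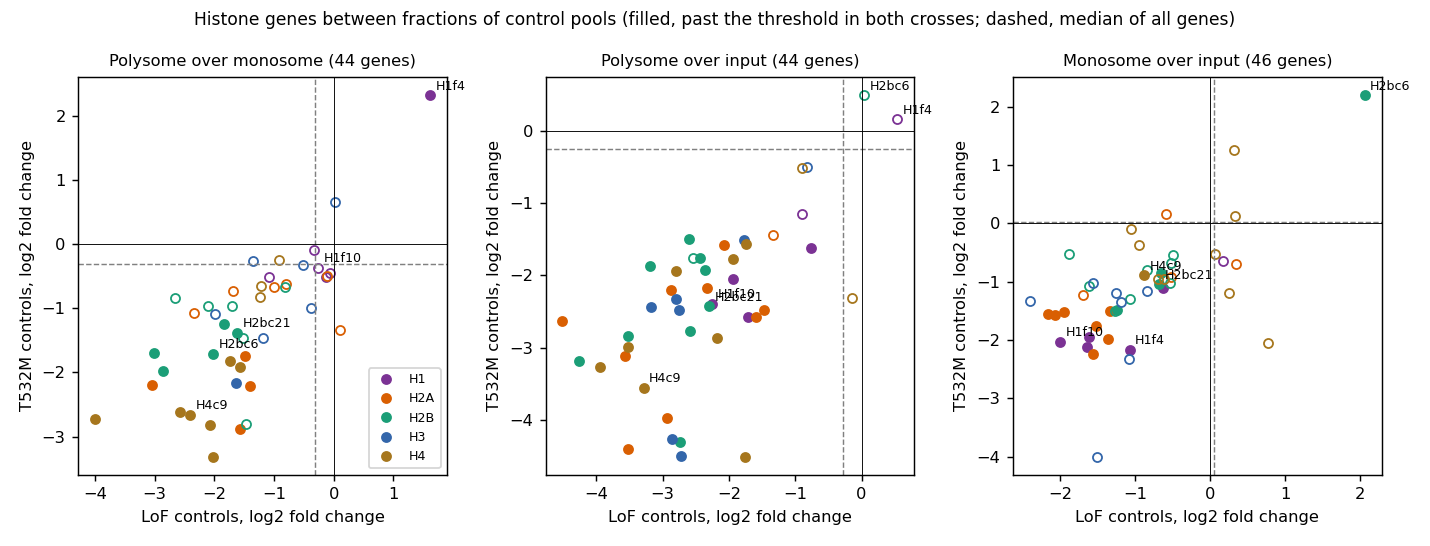
Log2 fold change of each histone gene between fractions of control pools, LoF controls on the x axis and T532M controls on the y axis, for genes tested in both crosses with reads in both fractions (44, 44 and 46 genes). Filled points passed in both crosses (18, 36 and 17 genes), dashed lines are the medians of all genes. H1f4 stands highest for polysome over monosome, and H2bc6 lies above 0 in both crosses for monosome over input.

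The variant and replication-independent histone genes were also mostly lower in polysomes than in monosomes. The list of 11 such genes, H1f10 and H2ax among them, groups them as polyadenylated, which was not checked in the reads. Of the 11 genes, 7 were lower and 2 higher in polysomes of LoF controls, and 8 were lower and 2 higher in T532M controls. Of all genes 44.9% and 43.9% were lower and 36.4% and 36% higher, in LoF and T532M controls in that order. The centromeric H3 gene Cenpa had a log2 fold change of -3.62 in LoF and -3.61 in T532M controls, the H3.3 gene H3f3a -2.34 and -2.33, and the H2A.Z gene H2az2 -2.21 and -2.44, each with an adjusted p below that of H2bc21 in the same cross. Against input, 10 of the 11 were lower in polysomes in both crosses. The shares of all genes lower in that comparison are given above, where polysomes were set against input.

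Lists of factors that make and use histone mRNAs held genes of both directions, and are read beside 36.4% of all genes higher and 44.9% lower in LoF controls and 36% and 43.9% in T532M controls. No list was tested against other genes. Of 33 genes of histone mRNA 3′ processing and decay, 19 were higher and 13 lower in polysomes of LoF controls, and 20 and 13 in T532M controls. Upf1, the helicase of mRNA decay, had 3.83 and 3.89, Cstf2t, a cleavage stimulation factor, 3.64 and 3.98, and Lsm5, a subunit of the Lsm ring, -4.39 and -4.46, in LoF and T532M controls in that order. Of 18 genes of histone gene transcription, 10 were higher and 6 lower in both crosses, and the largest change was that of E2f1, a transcription factor of S phase genes, at -3.18 and -3.14. Of 23 tested histone chaperone and import genes, 19 were higher and 3 lower in LoF controls and 20 and 3 in T532M controls, with Nap1l3 at 4.42 and 4.37 and the FACT subunit Ssrp1 at 3.98 and 4.02. Of 34 tested S phase genes, 25 were higher in both crosses and 8 and 9 lower, with the DNA ligase Lig1 at 4.76 and 4.87. Of 20 genes of G2 and mitosis, 18 and 19 were higher and 1 lower, with the spindle factor Tpx2 at 3.58 and 3.72. On library totals each of these log2 values is 0.90 lower, which changes the sign of none of the genes named here. The median of the 3′ processing list, 0.82 in LoF and 0.91 in T532M controls, then lies near 0, and that of the transcription list, 0.40 and 0.41, falls below 0. None of these 6 lists, nor any of the marker lists, had a gene past the threshold between cHet and control in any fraction.

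Levels of these genes were also compared between cHet and control pools. Over the 6 comparisons of cHet with control, 0 of the 49 tested histone genes passed the threshold in edgeR, and DESeq2 called 0 as well. The share of all genes called was 0% in LoF polysomes, 0.0108% in LoF monosomes and 0% in LoF input, and 0% in T532M polysomes, 1.03% in T532M monosomes, 0.976% higher and 0.0548% lower, and 0.00548% in T532M input. At an unadjusted p under 0.05 there were 1, 1 and 2 histone genes in LoF polysomes, monosomes and input, beside 3.23%, 4.2% and 10.8% of all genes. In the T532M cross there were 5, 4 and 1, beside 7.92%, 11.8% and 10.7%. The 49 genes had a median log2 fold change of 0.02, 0.04 and 0.19 in LoF polysomes, monosomes and input, and of -0.01, 0.16 and 0.07 in T532M ones. A gene that misses the threshold has not been shown to be equal.

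Summed levels overlapped between genotypes. In polysomes the 65 genes without H1f10 summed to 22.8 ± 4.53 CPM in LoF cHet and 22.2 ± 2.49 CPM in LoF control pools, and to 21.4 ± 2.48 CPM in T532M cHet and 22.1 ± 2.58 CPM in T532M control pools (SD, n = 3 each). In monosomes the sums were 65.1 ± 13.2 CPM in LoF cHet and 67.8 ± 8.71 CPM in LoF control pools, and 67.2 ± 3.82 CPM in T532M cHet and 60.4 ± 10.6 CPM in T532M control pools. In input they were 120.6 ± 2.20 CPM in LoF cHet and 113.5 ± 5.07 CPM in LoF control pools, and 112.9 ± 2.39 CPM in T532M cHet and 116.4 ± 3.47 CPM in T532M control pools. No pair was separated. Of 30 class sums compared, 27 overlapped. H4 in LoF input lay higher in cHet, at 29.1 to 30.8 CPM, against 24.7 to 27.5 CPM in control, and H1 in T532M monosomes lay higher in cHet, at 4.17 to 6.11 CPM, against 3.49 to 4.12 CPM in control. H3 in T532M input lay lower in cHet, at 3.55 to 3.82 CPM, against 4.58 to 4.75 CPM in control. A sum over these genes was given no test.

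In LoF input the tested genes had a median log2 fold change of 0.19. The 6 genes that averaged at least 1 CPM over all 36 libraries had a median of 0.0046. These are not the 12 genes at 1 CPM or more in input, and they leave out H1f4 and H4c4, given below. In 10 of the 49 tested genes every cHet pool lay above every control pool and in 0 every cHet pool lay below, beside 5.06% and 6.21% of all genes. H1f4 had the lowest p: 1.43, 1.42 and 1.62 CPM in LoF cHet input, against 0.483, 0.869 and 1.04 CPM in LoF control input, which gave a log2 difference of 0.90 (SE 0.358, adjusted p = 0.344). H4c4, an H4 gene, had 1.16, 1.36 and 1.73 CPM in LoF cHet input, against 0.799, 0.560 and 0.817 CPM in LoF control input, a log2 fold change of 0.96 (adjusted p = 0.370). Neither passed. H4c9 had 25.2, 23.1 and 24 CPM in LoF cHet input, against 20.5, 22.7 and 21.6 CPM in LoF control input, and H2bc21 had 46.7, 46.4 and 46.3 CPM in LoF cHet input, against 42.7, 42.4 and 46.2 CPM in LoF control input. Both sets are separated by less than 1 CPM at their nearest pools, and the log2 fold changes of 0.16 (SE 0.163) and 0.09 (SE 0.173) are no larger than their errors. The other genes were H1f3, H2ac4, Hist1h2ap, H2bc3, H3c3 and H4c2. In T532M input 3 genes lay higher and 3 lower in cHet, beside 6.46% and 6.85% of all genes. The choroid plexus and hem markers given above reached 55.1 CPM in LoF cHet and 203.9 CPM in LoF control input, with overlap, and their part in these input values was not tested.

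In monosomes and polysomes few genes were separated. In LoF monosomes 2 genes lay higher and 1 lower in cHet, beside 5.66% and 4.91% of all genes, and in LoF polysomes 0 higher and 3 lower, beside 3.91% and 2.66%. In T532M monosomes 6 lay higher and 1 lower, beside 9.01% and 12.2%, and in T532M polysomes 2 higher and 3 lower, beside 3.42% and 6.06%. H1f10 had the lowest p in T532M monosomes, with 49.8, 55.5 and 57.7 CPM in cHet, against 38.3, 53.2 and 39.7 CPM in control, where control pool 2 lay among the cHet pools. Its log2 fold change was 0.31 (SE 0.121, adjusted p = 0.312), and 0.47 (adjusted p = 0.0376) without T532M control pool 2; its adjusted p ranged from 0.0376 to 0.937 over 13 settings, with 1 under the threshold. Without T532M cHet pool 1, whose choroid plexus and hem sum of 233.6 CPM in input was the highest of that cross, it was 0.37 (adjusted p = 0.446). H2bc21 in T532M monosomes had 25.5, 28.3 and 26.3 CPM in cHet, against 19.3, 25.3 and 22.6 CPM in control, which gave a log2 difference of 0.25 (SE 0.111, adjusted p = 0.393), with every cHet pool higher.

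H3c15, an H3 gene of the chromosome 3 cluster, had the lowest p in T532M polysomes. It had 3, 3 and 3 read pairs in T532M cHet polysomes, against 6, 13 and 22 in T532M control polysomes, or 0.0981, 0.117 and 0.0932 CPM in T532M cHet, against 0.180, 0.447 and 0.666 CPM in T532M control polysomes. The groups did not overlap, and the log2 fold change was -2.03 (SE 0.532, adjusted p = 0.501). In LoF polysomes H3c15 had 0.301, 0.415 and 0.437 CPM in cHet, against 0.485, 0.493 and 0.460 CPM in control, also lower throughout but by less. The difference between the crosses was 1.73 (SE 0.729, adjusted p = 0.812), as LoF effect minus T532M effect.

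**Figure D5:**
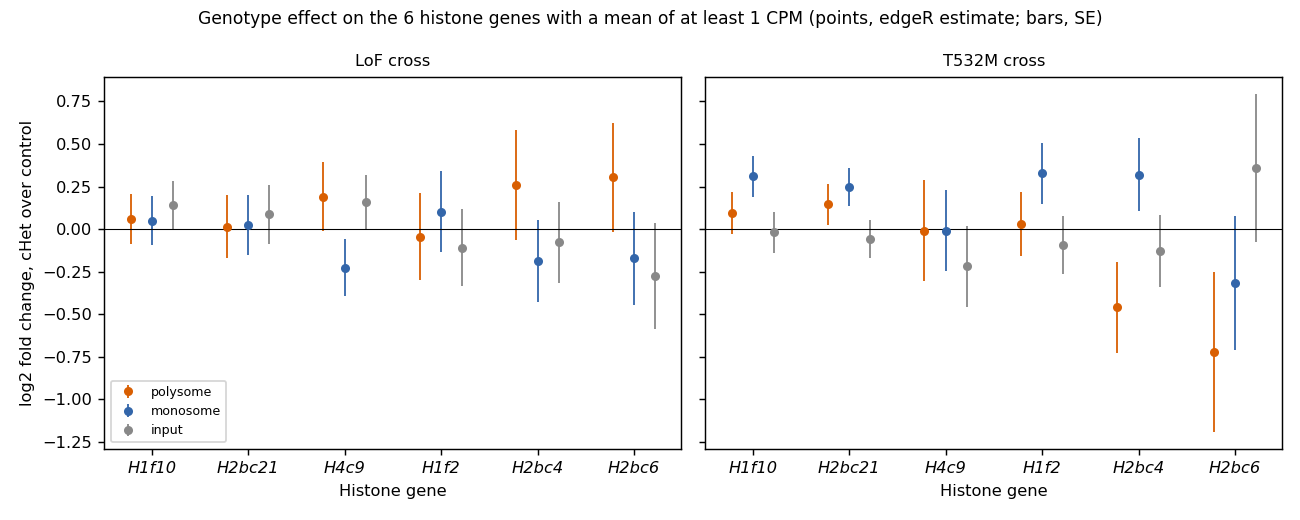
Log2 fold change of cHet over control for the 6 histone genes with a mean of at least 1 CPM over all 36 libraries, in polysomes, monosomes and input of each cross, as edgeR estimates (points) with their SE (bars). The values lie between -0.72 and 0.36, and none passed the threshold.

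Loading, the change of polysome over monosome or over input between cHet and control, was tested as an interaction. 0 of the 49 genes passed in edgeR or DESeq2 in the 4 tests. The share of all genes called was 0% in LoF and 0.0603% in T532M for polysome over monosome, and 0.0108% in LoF and 0% in T532M for polysome over input. For polysome over monosome 1 gene in LoF and 4 in T532M had an unadjusted p under 0.05, beside 3.02% and 6.85% of all genes. For polysome over input there were 4 in each cross, beside 6.87% in LoF and 6.1% in T532M. The 49 genes had a median log2 change of polysome over monosome of -0.07 in LoF and -0.31 in T532M, beside -0.01 and 0.02 over all genes. For polysome over input it was -0.07 and -0.30, beside 0.04 and -0.03. The 6 genes of at least 1 CPM over all 36 libraries had medians of 0.21 and -0.26 for polysome over monosome, and 0.05 and 0.12 for polysome over input. For polysome over monosome H4c9 changed by 0.42 (SE 0.262) in LoF and 0.00 (SE 0.388) in T532M on the log2 scale, and H2bc21 by -0.01 (SE 0.255) and -0.10 (SE 0.162). The effect of LoF minus that of T532M, tested in each fraction on 55 genes, likewise gave 0 calls in edgeR and DESeq2, with 0%, 0% and 0.0105% of all genes called in polysomes, monosomes and input and 1, 2 and 1 histone genes at an unadjusted p under 0.05, beside 5.59%, 6.69% and 15.9% of all genes.

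The authors' deposited tables of cHet against control were read beside these fits. Their monosome and polysome columns matched folds relative to the input fold, not folds within the fraction. Only the input columns are thus like the comparisons of cHet with control given above. The authors' deposited table for LoF lists 64 of the 66 genes, with an adjusted p for 60, 60 and 6 of them in its polysome, monosome and input columns, and 0 were under 0.05, beside 0.00557%, 0% and 0.562% of all genes. The authors' deposited table for T532M lists 37, with an adjusted p for 37, 3 and 21, and again 0 were under 0.05, beside 0.00723%, 0.55% and 0.925%. The lowest adjusted p of a histone gene in the authors' deposited tables was 0.842, 1.00 and 0.706 for LoF and 0.628, 0.50 and 0.484 for T532M in the same order of columns.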

How the data were processed

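The deposited table holds raw counts of read pairs per gene for 36 libraries. Per the file headers, the authors' featureCounts 2.0.3 counted whole gene spans of GENCODE M25 with strand setting 2, without reads that map to several places or overlap several genes. The submitters' processing notes name STAR 2.7.11a, FastQC 0.11.7, DESeq2 1.34.0 and GRCm38. Libraries were made with KAPA HyperPrep from pooled gradient fractions, per the labels' protocols; which of the 12 fractions were joined is not stated there. The authors' deposited DESeq2 tables hold log2 fold changes with p-values, of which only adjusted p-values were read; their monosome and polysome columns matched, in a comparison with the fits here, folds relative to the input fold.

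The 66 genes and all gene lists were chosen with earlier results of these data known, so no list is tested as a set. Each cross was fitted with edgeR 4.0.16 (R 4.3.3, limma 3.58.1; quasi-likelihood, TMM, filterByExpr) on its 6 groups as deposited counts, with both crosses in 1 fit for the difference between them; calls use a Benjamini-Hochberg adjusted p under 0.05 over all genes tested. The scripts were tested on simulated data. Levels are CPM on TMM library sizes of all 36 libraries, divided by gene span for levels between genes. DESeq2 1.42.0 and the other alternatives are given in the closing section. Named were, per class, the 3 genes highest per kb in input, every gene past the threshold between genotypes, and Ddx3x. In fraction comparisons they were the 2 highest and 2 lowest per class at 1 CPM or more over all 36 libraries, and up to 3 per list. H1f4, H2ac10, H3c15, H4c4 and the genes listed as not overlapping were named after their values were seen.

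Depth limits most genes: 54 of 66 are under 1 CPM in input. The labels name separate pools but no litters. The p-values rest on the spread between libraries within groups, estimated over all fractions in a fit. In the main fit the 3 fractions of a pool count as separate libraries and are not paired. The labels tie no cHet pool to a control pool. Same-numbered cHet and control libraries deviated together in T532M monosomes, with 3 of 3 pairs over 0.1 (r from 0.21 to 0.30). There the number is treated as pairing them in the run with a block, which does not establish that the pools were paired. In T532M polysomes 2 of 3 pairs were over 0.1 (0.06 to 0.53), in T532M input 1 (-0.43 to 0.16), in LoF polysomes 1 (-0.19 to 0.43) and in LoF monosomes and input 0, so these are not paired. Fractions of 1 number share a lysate by the protocol (36 pairs, median r 0.29, 27 over 0.1).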

Additional observations from a re-analysis of the deposited data

How the results depend on the processing

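Over 543 repeats of the counts, medians and sums, 502 moved by less than 1.5 times or 1 SD, 41 moved further and none changed sign as a call. Counts of histone genes called were 0 between genotypes, in loading and between crosses under each alternative run (DESeq2, RLE size factors, no low-count filter, without mitochondrial and ribosomal RNA gene models, each fraction alone). When single pools were left out in turn, the count was 0 to 1 in T532M monosomes (H1f10) and 0 in the other such comparisons. The fit without the pools over 30 CPM of Ttr leaves 1 LoF control pool, so its calls between genotypes are not given. In that fit the log2 fold change of H2bc21 in LoF monosomes was 0.53, against 0.02 in the main fit. With the replicate number as a block the counts between cHet and control stayed at 0. T532M monosomes, where same-numbered libraries deviated together, were among them (H1f10, edgeR adjusted p = 0.211). With the lysate as a block, counts were taken for polysome over monosome, polysome over input and monosome over input, in that order. LoF controls gave 30, 38 and 28, against 30, 38 and 25 in the main fit. T532M controls gave 22, 41 and 28, against 22, 42 and 24 in the main fit. The limit on Ttr was applied to LoF alone; the T532M cHet pool with most choroid plexus markers, pool 1, is among the pools left out in turn, and without it 0 genes were called between genotypes. Leaving out the LoF pools with Ttr leaves 1 LoF control pool, assumed to vary like the others; the LoF control counts were then 10, 25 and 12 and the polysome over monosome median -1.26. Without single pools the LoF monosome over input count ran from 15 to 29, and medians from -1.95 to -1.47 (LoF controls, polysome over monosome), -1.37 to -1.09 (T532M controls, the same), 0.11 to 0.33 (T532M monosomes, cHet over control), -0.43 to -0.0089 and -0.51 to -0.19 (the T532M changes of polysome, over input and then over monosome) and -0.24 to 0.28 (difference between crosses, polysomes). For the 6 genes of at least 1 CPM over all 36 libraries, medians were -1.82, -0.78 and -1.54 (polysome over monosome and monosome over input in LoF controls, polysome over monosome in T532M controls), 0.0046 and -0.0754 (LoF and T532M input, cHet over control) and 0.12 (T532M change of polysome over input). DESeq2 gave 0.24 for the LoF change of polysome over monosome and 0.12 for the T532M change of polysome over input; with no filter that T532M median was -0.0212, and that of T532M controls, polysome over monosome, -1.30. On library totals the 66 genes summed to 41.61 and 39.37 (polysome), 131.7 and 134.1 (monosome) and 367.1 and 348.1 CPM (input) in LoF cHet and control pools, and to 36.35 and 35.16, 150.1 and 129.0, and 352.1 and 354.2 CPM in T532M ones; without mitochondrial and ribosomal models input sums were 316.4 CPM in LoF cHet and 301.4 and 305.1 CPM in T532M cHet and control pools. Among single genes, 409 repeats kept their call, 3 lost it (H2bc4, LoF controls, monosome over input, without control pool 1 or 2; H1f10, T532M controls, polysome over monosome, without control pool 2) and 2 moved without a call. The cause was not tested.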
